A study of Bos taurus with 42 samples.

Results

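The miR-10, miR-99 and miR-100 family comprises the microRNAs (miRNAs) miR-10a, miR-10b, miR-99a, miR-99b and miR-100. Its entries were taken from a table of small RNA sequences by name, wherever the first annotation of a sequence was one of these miRNAs with no mismatch. This gave 8 of the 12345 entries: miR-10b-5p, miR-10b, miR-10b-3p, miR-10a-5p, miR-99a-5p, miR-99b-5p, miR-100-5p and miR-100. The deposited names do not say how an entry without an arm differs from the one with it. All 8 entries passed the filter on low values, and together they held 36589 reads. Another 12 entries of the same miRNAs carry a mismatch in their name and held 72398 reads. They were kept apart and are described beside the exact entries.

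The study profiled bovine small RNA, of less than 200 nt, on an Ion Proton sequencer in 42 libraries of 12 groups. The starting points were MII oocytes, which are mature and unfertilised (3 libraries), and a primary fibroblast culture from the ear of 1 Brahma Spanish bull cross (3 libraries). Embryos were made by in vitro fertilisation (IVF) of such oocytes with semen of a Holstein bull, or cloned by transfer of a somatic nucleus from a fibroblast (NT). Both kinds were collected in pools of 20 embryos as 2-cell embryos on day 2, 8-cell embryos on day 3, morulae on day 6 and blastocysts on day 8. IVF groups held 4, 3, 4 and 3 libraries in that order, and NT groups 4, 4, 3 and 4. Cells derived from blastocysts made up 4 IVF and 3 NT libraries, and how they were derived is not given in the sources used here. IVF zygotes grew on a layer of bovine cumulus cells. The labels do not say whether libraries of fibroblasts or derived cells came from separate cultures, so p-values measure the spread between these samples only, which may be technical.

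A miRNA is cut from a hairpin precursor whose 5′ (5p) and 3′ (3p) arms can each give a mature strand of about the same length. The strand guides a silencing complex to messenger RNAs that pair with its seed, the bases near its 5′ end. miR-10a and miR-10b are encoded within HOX gene clusters, are best known for repressing HOX transcripts, and differ from each other by a single base. miR-99a, miR-99b and miR-100 resemble them in sequence but carry another seed, and the MTOR kinase is among their known targets. Their genes are transcribed together with let-7 and miR-125 genes. In the RefSeq annotation of assembly ARS-UCD2.0, used here for neighbours only, MIR10A lies beside HOXB3 and HOXB4 and MIR10B beside HOXD4 and HOXD3. MIR99A lies with MIRLET7C and MIR125B-2, MIR99B with MIRLET7E and MIR125A, and MIR100 with MIRLET7A-2 and MIR125B-1.

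Values below are the deposited variance-stabilised log2 values, on which a sequence with 0 reads stands at 1.37. The read numbers behind them were recovered from the file. Libraries held between 25119 and 3081186 listed reads, of which between 796 and 2482312 were miRNA reads, or 1.48% to 81.8%. That share was 2.00% to 3.25% in oocytes, 9.88% to 20.3% in blastocysts and 45.1% to 81.8% in derived cells. Results are therefore also given per miRNA read or per listed read where the scale matters. Every listed entry was found in NT 2-cell replicate 4, and in no other library were more than 8919 found, so a sequence absent from that library is not listed at all. IVF morula replicate 3, with 796 miRNA reads and 2 reads of the family, and IVF morula replicate 1, whose miRNA share was 64.1%, stood apart from the other morulae. Differences were tested with limma over the whole table, with Benjamini-Hochberg adjustment over 12039 entries and a threshold of 0.05, and a member past it is said to be called.

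miR-10b led the family in oocytes and early embryos and was lowest in fibroblasts. miR-10b-5p stood at 8.89, 9.13 and 8.42 in the oocyte libraries, from 93, 113 and 96 reads. In fibroblasts it stood at 1.37, 3.80 and 1.71, from 0, 34 and 2 reads. The oocyte libraries lay close together and far above the fibroblasts, whose replicate 3 lay over the other two. By group mean the order ran from oocytes (8.81 ± 0.36, SD, n = 3) through NT 2-cell (8.56 ± 0.64, n = 4), IVF 2-cell (8.36 ± 1.02, n = 4), NT 8-cell (8.26 ± 0.81, n = 4) and IVF 8-cell embryos (7.69 ± 0.10, n = 3). NT morulae followed at 7.22 ± 0.13 (n = 3), then IVF blastocysts at 5.96 ± 0.31 (n = 3) and NT derived cells at 5.59 ± 0.72 (n = 3). The lower end held IVF morulae at 5.07 ± 2.88 (n = 4), NT blastocysts at 4.98 ± 0.47 (n = 4), IVF derived cells at 4.49 ± 2.07 (n = 4) and fibroblasts at 2.29 ± 1.31 (n = 3). Of the 11 steps between neighbours in this order, 3 were larger than both groups' SD: IVF 8-cell to NT morula, NT morula to IVF blastocyst, and IVF derived cells to fibroblasts. From oocytes to the 8-cell stage, then, no neighbours differed beyond their spread.

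**Figure D1:**
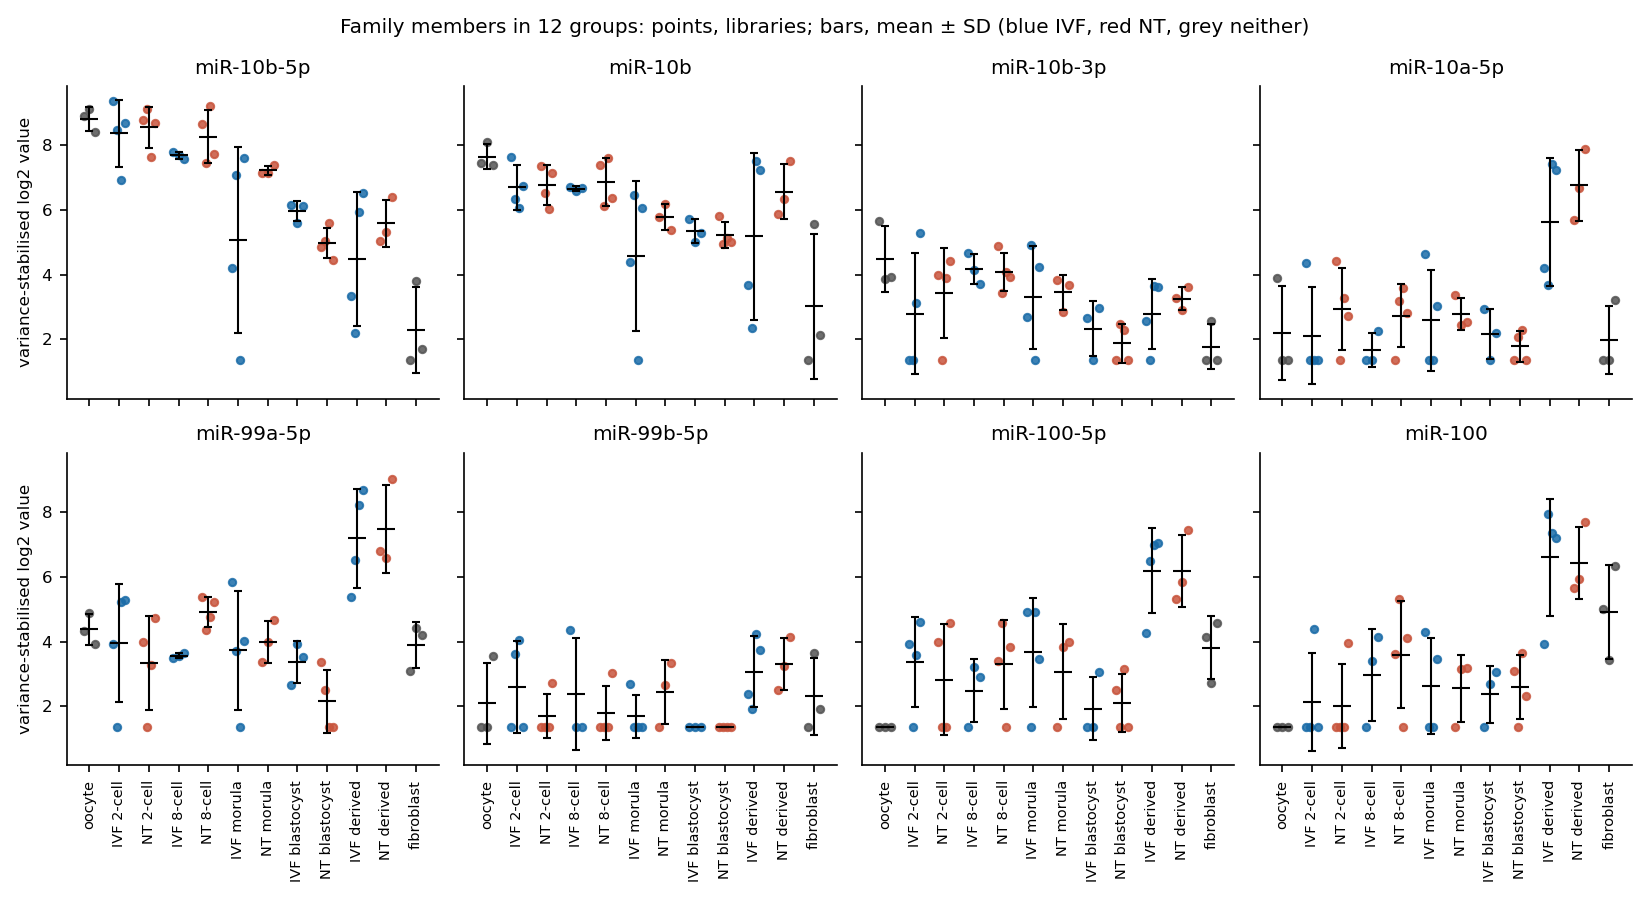
Deposited log2 value of each family entry (panels) in every library (points) for the 12 groups along the horizontal axis. Mean ± SD is drawn for each group. miR-10b-5p descends from 8.81 in oocytes to 2.29 in fibroblasts, while the 7 libraries of derived cells lie above all 7 blastocyst libraries for miR-10a-5p, miR-99a-5p, miR-100-5p and miR-100.

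Between oocyte and blastocyst miR-10b-5p and miR-10b-3p fell in both kinds of embryo on the deposited scale, and the miR-10b entry in NT. miR-10b-5p stood at 6.15, 5.60 and 6.12 in IVF blastocysts and at 4.86, 5.03, 5.58 and 4.45 in NT blastocysts. None of these 7 libraries reached the lowest oocyte value. In normalised reads the oocyte mean was 7.82 times that of IVF blastocysts and 16.2 times that of NT blastocysts, and per 1000000 miRNA reads 5.88 and 11.8 times. Between oocytes and IVF blastocysts 2 of 8 members were called, both lower, where 35.4% of all entries were called and 33.9% were called lower and 1.49% higher: miR-10b-5p (−2.86 ± 1.03, log2 change ± SE, limma adjusted p = 0.023) and miR-10b-3p, the opposite strand of the hairpin (−2.15 ± 0.84, adjusted p = 0.0365). Between oocytes and NT blastocysts 4 of 8 were called, all lower, against 40.4% of all entries and 38.5% called lower (1.91% higher). The background over all entries is thus near or above the members' share in these comparisons. Among the 582 miRNA entries tested, a smaller 16.7% in IVF and 24.6% in NT were called in either direction. The members' median change was −0.86 in IVF and −1.48 in NT blastocysts, beside −0.86 and −0.87 over all entries and 0 over miRNA entries in both.

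In NT blastocysts miR-10b-5p had changed by −3.83 ± 0.96 (limma adjusted p = 0.000701), the largest change of the 8 entries there. The other 3 were miR-10b-3p (−2.60 ± 0.78, adjusted p = 0.00481), miR-10b (−2.43 ± 0.95, adjusted p = 0.0329) and miR-99a-5p (−2.23 ± 0.85, adjusted p = 0.0295). The miR-10b entry stood at 7.46, 8.10 and 7.38 in oocytes, at 5.73, 5.00 and 5.29 in IVF blastocysts, and at 5.80, 4.94, 5.15 and 5.00 in NT blastocysts. Its libraries did not overlap between oocytes and either kind of blastocyst, yet its IVF change of −2.31 missed the threshold (limma adjusted p = 0.0669). miR-10b-3p was sparse, with 9, 2 and 3 reads in the oocyte libraries.

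Scale and single libraries decided several of these calls. Per listed read, with the recovered reads analysed by limma-voom, miR-10b-5p changed by −0.21 in IVF (adjusted p = 0.893) and by −0.90 in NT blastocysts (adjusted p = 0.789), and miR-10b by 0.57 in NT blastocysts (adjusted p = 0.837), a reversed sign. Per miRNA read miR-10b-5p changed by −2.53 (adjusted p = 0.199) and −3.54 (adjusted p = 0.0407). The NT call of miR-10b-5p held without each of the 7 libraries in turn (limma adjusted p from 0.00108 to 0.00556). Its IVF call was lost without oocyte replicate 1, oocyte replicate 3 or IVF blastocyst replicate 3 (limma adjusted p up to 0.0736), that of miR-10b-3p without oocyte replicate 1 or IVF blastocyst replicate 2 or 3 (up to 0.191). In NT blastocysts the miR-10b-3p call was lost without oocyte replicate 1 (0.061), that of miR-99a-5p without 4 single libraries (up to 0.108) and that of miR-10b without 6 of 7 (up to 0.109). Of 8 marker entries of cumulus and granulosa cells (miR-21, miR-132, miR-202 and miR-212), 4 were called lower in this step in IVF and 4 in NT, and of 6 epithelial entries 1 and 2, beside the 33.9% and 38.5% of all entries called lower. The entry miR-21-5p was not called (−0.31 and −1.23, limma adjusted p = 1 and 0.592). The pluripotency marker found, miR-302a, instead rose by 6.62 and 6.39. The part of these cells in the fall of miR-10b was not tested. In these bulk samples fewer copies per cell and a changed mix of cells cannot be told apart.

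Most family reads of the oocytes lay in an entry that is named as a mismatched form of miR-10a. Positions are those printed in the deposited names, with the annotated base first. Whether they are counted along the annotated miRNA or along the read is not stated. The form T12A of miR-10a-5p stood at 12.15, 12.11 and 11.35 in oocytes, from 899, 901 and 739 reads. Exact miR-10a-5p had 2, 0 and 0 reads in those libraries. One entry annotated to both miRNAs is A12G of miR-10b-5p and T12G of miR-10a-5p. It shows that the annotated base at its position 12 is A in miR-10b and T in miR-10a. If both names count from the same start, T12A gives miR-10a the base annotated for miR-10b there. The names alone cannot tell which of the genes such reads came from.

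The T12A form followed miR-10b, not exact miR-10a, across the study. Over the 42 libraries its log2 values had a Pearson r of 0.965 with miR-10b-5p and 0.028 with exact miR-10a-5p. The r of exact miR-10a-5p with miR-10b-5p was −0.06. These correlations describe libraries that share depth and miRNA share. Its reads exceeded those of the miR-10b-5p and miR-10b entries together in every library that held the latter. The group medians of the ratio lay between 3.16 in fibroblasts and 5.95 in NT morulae, with a lowest library of 1.29 in IVF derived cells and a highest of 8.78 in IVF morulae. The form made up 80.8%, 74.6% and 75.4% of the family's reads, mismatched forms included, in oocytes, and 61.9% to 75.3% in blastocysts. In derived cells it made up 31.2% to 45.9%, with the exception of IVF derived replicate 2 at 0.326%.

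**Figure D2:**
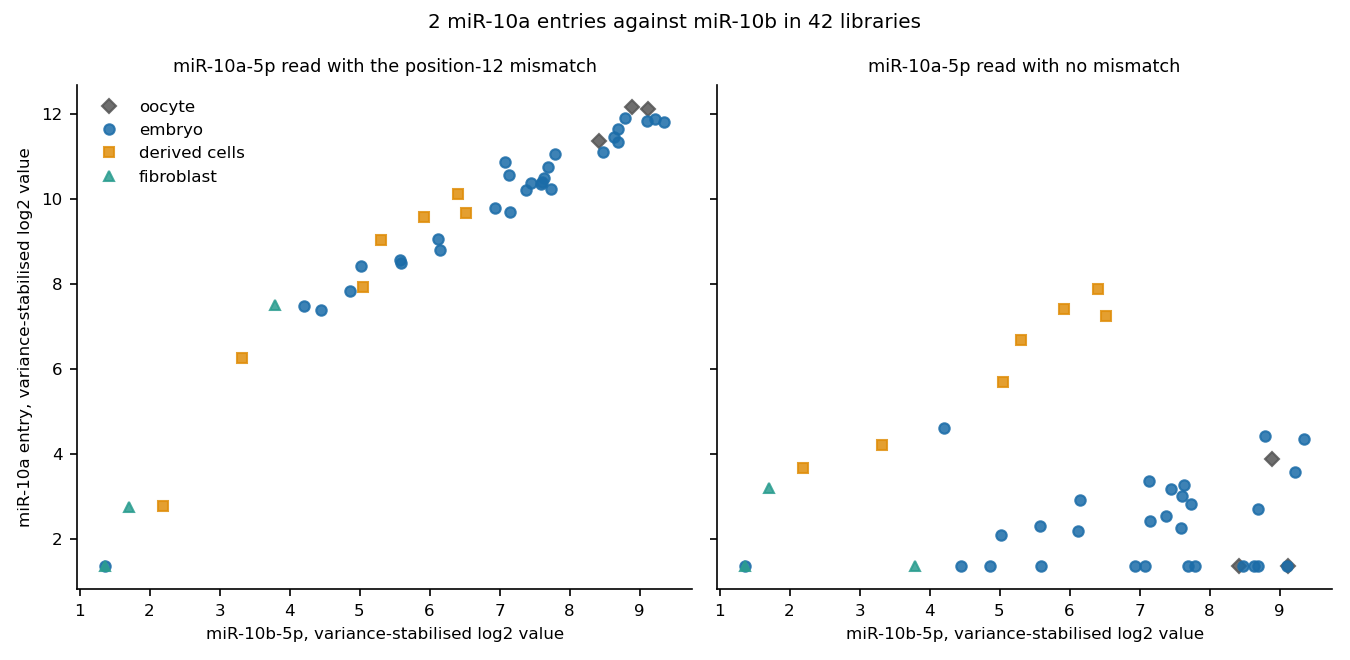
Deposited log2 values of exact miR-10a-5p and of its T12A form (vertical axes) against those of miR-10b-5p (horizontal axis), 1 point per library, marked as oocyte, embryo, derived cells or fibroblast. The T12A form lies along a line over all 42 libraries (Pearson r = 0.965), whereas exact miR-10a-5p shows no such line (r = −0.06) and has its highest values, 5.69 to 7.89, in 5 libraries of derived cells.

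The T12A form fell from oocyte to NT blastocyst, as miR-10b-5p did. It stood at 8.80, 8.49 and 9.05 in IVF blastocysts and at 7.84, 8.43, 8.57 and 7.38 in NT blastocysts, all below the oocytes. The change to IVF blastocysts was −3.09 ± 1.44 and missed the threshold (limma adjusted p = 0.0878). The change to NT blastocysts was −3.81 ± 1.34 (limma adjusted p = 0.0171) and was kept without each library in turn (up to 0.0499), but it was −0.68 per listed read by limma-voom (adjusted p = 0.827). In fibroblasts the form stood at 1.37, 7.50 and 2.76, from 0, 647 and 35 reads, so replicate 3 again stood over the others. The form T11A moved with the T12A form (r = 0.969 with miR-10b-5p over 42 libraries). The names do not say whether T11A and T12A are 1 substitution on reads with different starts. T11A is therefore not taken as separate evidence. The T11A entry changed by −5.66 ± 1.08 from oocytes to fibroblasts (limma adjusted p = 9.47e-06) and by −3.11 ± 1.01 to NT blastocysts (adjusted p = 0.00959), a call lost without oocyte replicate 3 (0.0543). Its change of −2.60 to IVF blastocysts was not called (adjusted p = 0.0519).

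With the mismatched forms counted in, the family's share of miRNA reads was highest from oocytes to 8-cell embryos and lower in blastocysts, derived cells and fibroblasts. It made up 8.36%, 11.9% and 8.81% of miRNA reads in the 3 oocyte libraries. The range was 2.27% to 11.6% in IVF and 5.98% to 12.1% in NT 2-cell embryos, and 5.32% to 8.08% in IVF and 4.26% to 10.7% in NT 8-cell embryos. Morulae held 0.224% to 5.65% in IVF and 4.02% to 5.07% in NT. The share was 0.761% to 2.00% over the 7 blastocyst libraries, 0.248% to 1.00% over the 7 of derived cells and 0.299% to 0.500% in fibroblasts. No library from the morula on reached the oocyte range, whereas both kinds of 2-cell embryo and NT 8-cell embryos overlapped it.

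Exact miR-10a-5p was at a few reads or 0 in oocytes and blastocysts and appeared in every library of derived cells. Oocytes held it at 3.89, 1.37 and 1.37, IVF blastocysts at 2.93, 1.37 and 2.20, and NT blastocysts at 1.37, 2.09, 2.30 and 1.37. The largest of these values came from 2 or 3 reads. IVF derived cells stood at 4.21, 3.67, 7.41 and 7.25, from 52, 66, 568 and 872 reads, and NT derived cells at 5.69, 6.69 and 7.89, from 81, 770 and 1768 reads. All 7 lay above all blastocyst and oocyte libraries except that oocyte replicate 1, with 2 reads, lay above IVF derived replicate 2.

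From blastocysts to derived cells 4 of 8 members were called in IVF, where 5.17% of all entries were called, 0.93% higher and 4.24% lower. The same step in NT also called 4 of 8, against 2.87%, with 0.988% higher and 1.88% lower. In both, those called were miR-10a-5p, miR-99a-5p, miR-100-5p and miR-100, all higher. The members' median change was 2.58 in IVF and 2.87 in NT, beside 0 over all entries and 0.67 and 0.80 over the 582 miRNA entries tested. Among the latter 19.4% and 22.7% were called in either direction. miR-10a-5p rose by 3.47 ± 0.82 in IVF (limma adjusted p = 0.00319) and by 4.97 ± 0.82 in NT (adjusted p = 2.12e-05). The NT blastocysts held 4 miR-10a-5p reads in all. The IVF call was lost without IVF blastocyst replicate 3 (0.0552).

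miR-99a-5p, from a let-7c and miR-125b cluster, was present at a low level from the oocyte on and rose in derived cells. It stood at 4.32, 4.88 and 3.93 in oocytes, 2.66, 3.93 and 3.53 in IVF blastocysts and 3.37, 2.49, 1.37 and 1.37 in NT blastocysts. IVF derived cells stood at 5.36, 6.51, 8.22 and 8.67, and NT derived cells at 6.80, 6.59 and 9.03. Every derived library lay above every oocyte and blastocyst library. The rise was 3.81 ± 0.85 in IVF (limma adjusted p = 0.00157) and 5.33 ± 0.85 in NT (adjusted p = 1.25e-05), or 31.0-fold and 128-fold in normalised reads. Per 1000000 miRNA reads it was 3.71-fold and 15.7-fold, and by limma-voom on that scale the IVF change of 2.13 was not called (adjusted p = 0.145).

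miR-99b-5p was scarce, with a highest group mean of 3.30, in NT derived cells. All 7 blastocyst libraries held 0 reads of it. Derived cells held it at 2.38, 1.91, 4.23 and 3.73 in IVF and at 2.51, 3.26 and 4.14 in NT. Against a floor of 3 reads in each blastocyst library, averaged over the group, the derived mean is at least 2.22-fold higher in IVF and at least 3.78-fold higher in NT. Single libraries lay under that floor. IVF derived replicates 1 and 2 held 1.32 and 0.37 normalised reads, under 2.72, and NT derived replicate 1 held 1.720, under 1.737. By limma neither change was called (1.69, adjusted p = 0.243, and 1.94, adjusted p = 0.189), whereas per listed read limma-voom called both (adjusted p = 0.0224 and 0.00465).

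miR-100, from the let-7a and miR-125b cluster, had no exact read in oocytes. There the floor of 3 reads corresponds on average to 13.4 normalised reads, or to 226, 296 and 270 per 1000000 miRNA reads in the 3 libraries. The miR-100-5p levels of IVF derived replicate 1 (164) and NT derived replicate 1 (167) lay under that limit, so a level like theirs would not have been detectable in oocytes. miR-100-5p stood at 1.37, 1.37 and 3.05 in IVF blastocysts and at 2.50, 1.37, 3.16 and 1.37 in NT blastocysts. It reached 4.25, 6.50, 6.97 and 7.03 in IVF derived cells and 5.30, 5.83 and 7.44 in NT derived cells, with no overlap. The miR-100 entry went from 1.37, 2.70 and 3.05 to 3.93, 7.94, 7.35 and 7.20 in IVF, and from 3.10, 1.37, 3.65 and 2.32 to 5.65, 5.92 and 7.69 in NT, again with no overlap. miR-100-5p rose by 4.26 ± 0.85 in IVF (limma adjusted p = 0.00042) and 4.09 ± 0.85 in NT (adjusted p = 0.000889), and the miR-100 entry by 4.23 ± 0.87 (adjusted p = 0.000573) and 3.81 ± 0.87 (adjusted p = 0.00315). The miR-100 call in NT was lost without NT derived replicate 4 (0.0841).

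An entry named as a mismatched form, A16T of miR-100-5p, was more abundant than either exact miR-100 entry in every library of derived cells. It moved with them in this step. It stood at 3.88, 3.93 and 3.41 in IVF blastocysts and at 2.50, 2.38, 3.34 and 2.32 in NT blastocysts. In derived cells it stood at 5.43, 8.67, 8.51 and 8.52 in IVF and at 7.16, 7.10 and 9.03 in NT, above every blastocyst. The rise was 4.04 ± 0.86 (limma adjusted p = 0.00098) and 5.13 ± 0.86 (adjusted p = 2.65e-05). Unlike the exact miR-100 entries it was present in all 3 oocyte libraries, at 5.33, 4.29 and 4.88, from 7, 3 and 7 reads. Exact miR-99a-5p was found in all 3 as well. Over the 42 libraries the Pearson r of A16T was 0.762 with miR-99a-5p, 0.628 with miR-100-5p and 0.778 with the miR-100 entry. The name alone cannot tell which gene of the family such reads came from.

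miR-10b was not called in the same step on the deposited scale, and in NT its direction depended on the scale. miR-10b-5p stood at 3.33, 2.19, 5.92 and 6.52 in IVF derived cells and at 5.05, 5.31 and 6.41 in NT derived cells, overlapping the blastocysts in both. Its change was −1.47 in IVF and 0.60 in NT (limma adjusted p = 0.837 and 1), and that of the miR-10b entry was −0.15 and 1.34 (adjusted p = 1 in both). Per miRNA read limma-voom called a fall of miR-10b-5p in IVF, by −4.55 (adjusted p = 0.00278), and of miR-10b, by −2.99 (adjusted p = 0.0492), and both were also lower per listed read (−2.27 and −0.73, adjusted p = 0.0609 and 0.551). In NT neither was called on either scale of reads: per miRNA read both were lower (adjusted p = 0.179 and 0.413, the miR-10b entry by −1.19), and per listed read both were higher (0.17 and 0.93, adjusted p = 0.896 and 0.461). Per miRNA read the median entry changed by −4.43 in IVF and −3.98 in NT, and on the listed scale by −2.17 and −1.76. miR-10a-5p, miR-99a-5p, miR-100-5p and miR-100 were higher by sign in derived cells on all 3 scales in both kinds of embryo. Their calls depended on the scale. Per miRNA read limma-voom called 2 members higher in IVF and 3 in NT, where 11315 and 11475 of 12039 entries were called in either direction.

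**Figure D3:**
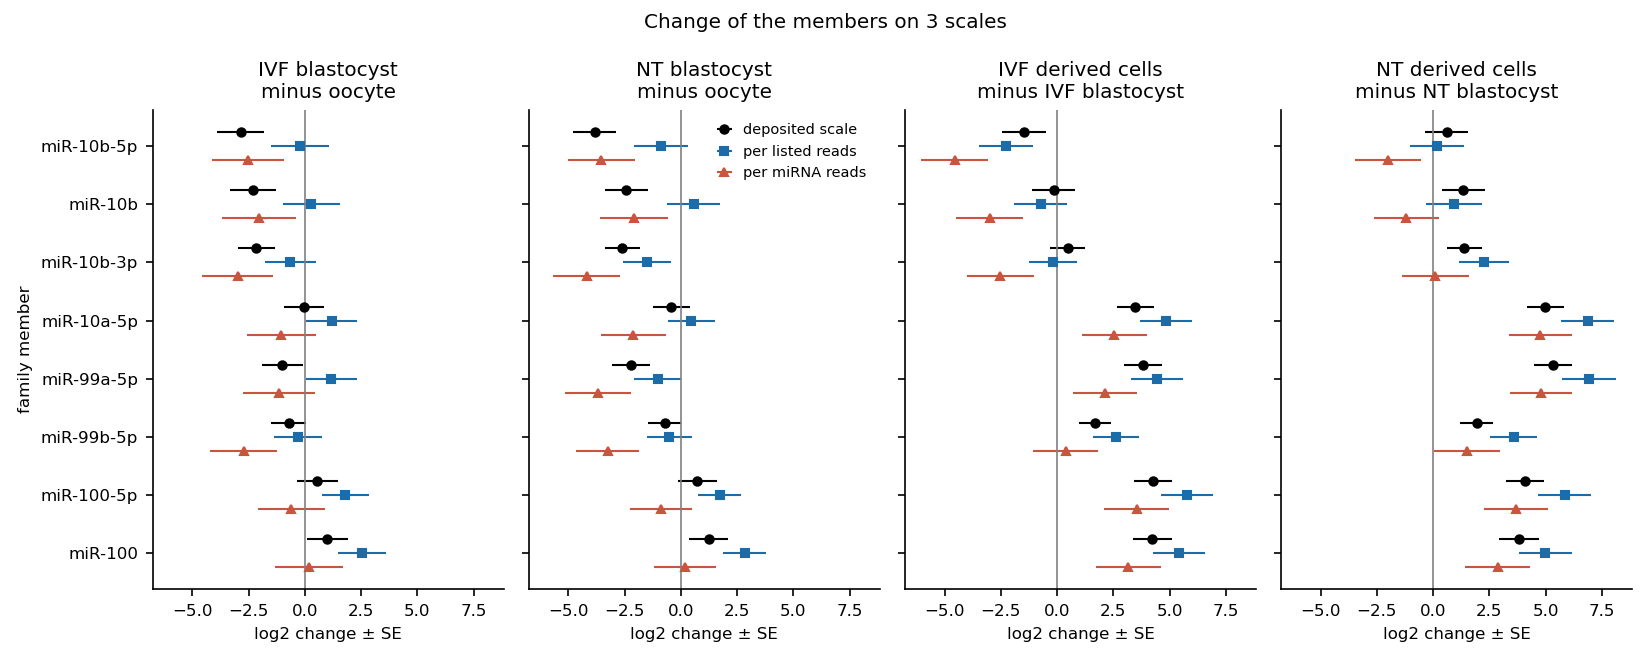
Change of each family entry (log2 ± SE, horizontal axis) in 4 comparisons (panels) on the deposited scale, per listed read and per miRNA read. miR-10a-5p, miR-99a-5p, miR-100-5p and miR-100 lie to the right of 0 in both steps to derived cells on every scale, whereas miR-10b-5p and miR-10b lie to the left of 0 on every scale in the IVF step and change side per miRNA read in the NT step.

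Among the exact entries the mix of family members therefore turned over between blastocysts and derived cells. The shares below leave out the mismatched forms. Of all family reads, the T12A form, which followed miR-10b, made up 31.2% to 45.9% in derived cells save IVF derived replicate 2. In blastocysts it made up 61.9% to 75.3%. Shares of miR-10b with such forms added in were not computed. Among reads of the 8 exact entries, miR-10b made up 96.5%, 97.1% and 96.7% in oocytes and 84.5% to 97.4% in blastocysts. In NT derived cells it made up 27.0%, 27.2% and 18.9%, beside 14.5%, 23.7% and 16.6% for miR-10a, 33.2%, 22.0% and 37.2% for miR-99a and 24.8%, 25.9% and 26.4% for miR-100. IVF derived replicates 1, 3 and 4 had a like mix, with 17.0%, 24.3% and 22.4% miR-10b. IVF derived replicate 2 differed, with 0.494% miR-10b, 1.92% miR-10a and 77.1% miR-100. The fibroblast libraries did not share 1 mix: miR-100 made up 90.8% and 82.8% in replicates 1 and 4 and 10.0% in replicate 3, where miR-10b made up 61.8%.

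**Figure D4:**
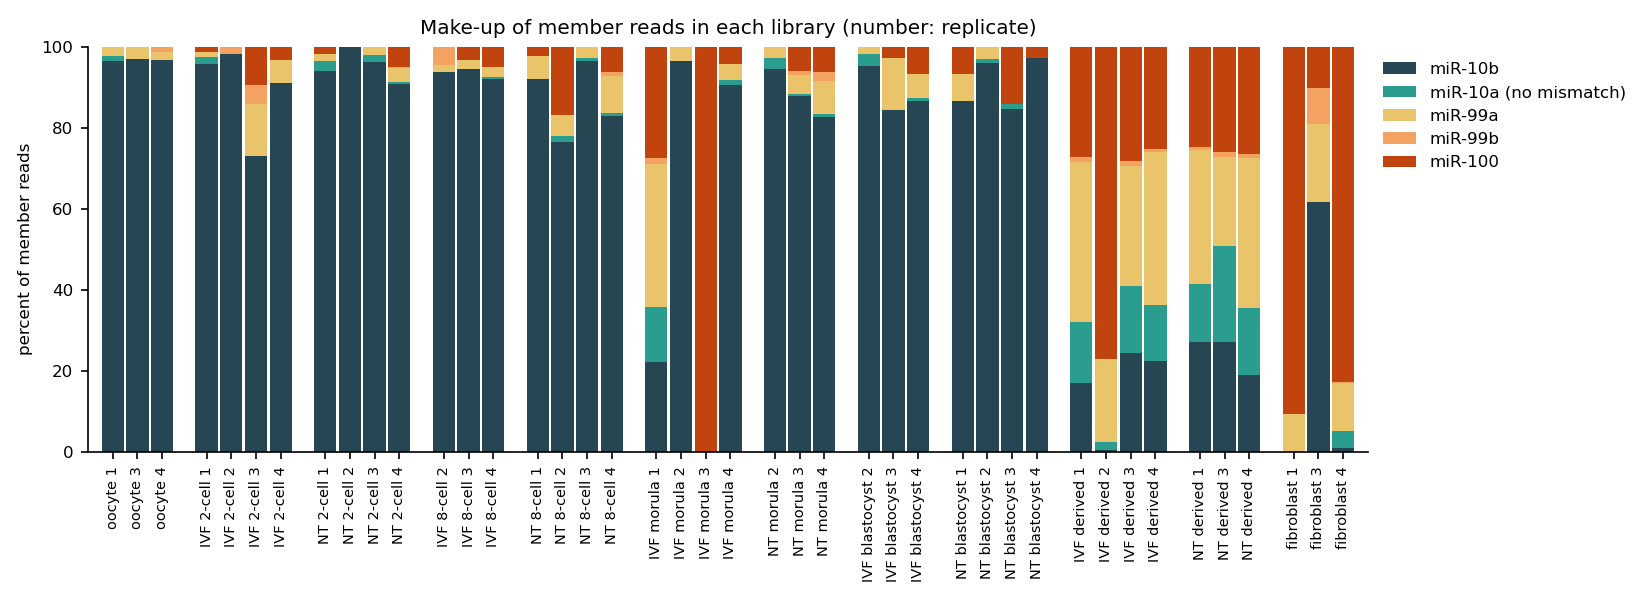
Share of the reads of the 8 exact entries (percent, vertical axis) by miRNA, with 1 stacked bar per library grouped along the horizontal axis. miR-10b fills 84.5% or more of every oocyte and blastocyst bar, and 27.2% or less of every bar of derived cells. Mismatched forms, among them the T12A form that followed miR-10b, are not included.

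Marker miRNAs of fibroblasts and mesenchyme moved along with these shares, and those of other cell types did so in part or not at all. The summed level of miRNAs of fibroblasts and mesenchyme (miR-143, miR-145, miR-199a, miR-199b and miR-214, 8 entries) was 652 to 2190 per 1000000 miRNA reads in blastocysts, 30409 to 101282 in IVF derived cells, 27168 to 42768 in NT derived cells and 12398 to 100505 in fibroblasts. In the step to derived cells 8 of these 8 entries rose in IVF and 7 in NT. Over all entries 0.93% and 0.988% were called higher there, and 4.24% and 1.88% lower. The summed level of epithelial and trophectoderm miRNAs (miR-141, miR-200c and miR-205, the 3 found of 6 names, with 6 entries) was 8307 to 18969 in derived cells save IVF derived replicate 2, at 25.6. It was 15721 to 24445 in oocytes, 5264 to 6305 in IVF and 3032 to 4002 in NT blastocysts, and 0, 0 and 13.7 in fibroblasts. Of these 6 entries, 1 rose and 1 fell in IVF, and 4 rose and 1 fell in NT. Blood miRNAs (8 entries) and those of cumulus and granulosa cells had 0 calls in this step, and miR-302a fell by 4.56 and 5.30. The part of these cell types in the family's changes was not tested. Without IVF derived replicate 2 the same 4 members were called in IVF: miR-100-5p (4.16, limma adjusted p = 0.00166), miR-100 (3.79, 0.00483), miR-10a-5p (4.12, 0.000956) and miR-99a-5p (4.04, 0.00233).

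Derived cells also differed from the fibroblasts in exact miR-10a-5p. Fibroblasts held it at 1.37, 1.37 and 3.20, below every library of derived cells. In IVF derived cells it was the 1 member called, by 3.66 ± 0.82 (limma adjusted p = 0.0149), where 0.307% of all entries were called, 0.291% higher and 0.0166% lower. In NT derived cells 2 members were called, both higher, against 0.673% of all entries, 0.565% higher and 0.108% lower: miR-10a-5p by 4.78 ± 0.88 (adjusted p = 0.000351) and miR-99a-5p by 3.58 ± 0.91 (adjusted p = 0.0319). miR-99a-5p stood at 3.08, 4.42 and 4.20 in fibroblasts, also below every derived library, and its IVF change of 3.29 missed the threshold (adjusted p = 0.0676). The IVF comparison was the 1 of 12 in which same-numbered libraries met the rule for pairing given below, though no label ties the numbers together. A fit of all 12 groups with the replicate number as a block called 2 members there. These were miR-10a-5p (3.81 ± 0.83, limma adjusted p = 0.00877) and miR-99a-5p (3.56 ± 0.84, adjusted p = 0.0215). That block also covers the comparisons that did not meet the rule.

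The IVF difference from fibroblasts rested on few libraries. The miR-10a-5p call was lost without fibroblast replicate 1 or 3, or IVF derived replicate 3 or 4 (limma adjusted p up to 0.401), and per miRNA read by limma-voom (4.17, adjusted p = 0.112). Without IVF derived replicate 2 it was 4.31 (0.00115), and miR-99a-5p was then called as well (3.52, 0.0354). In NT derived cells the miR-10a-5p call held without each library (up to 0.022) and was lost per miRNA read (5.31, adjusted p = 0.073), and that of miR-99a-5p was lost without 4 single libraries (up to 0.648). The miR-100 entries were not called in either comparison, with changes of 1.50 to 2.38 and normalised reads that overlapped in 3 of these 4 cases. Per 1000000 miRNA reads all 4 overlapped, and the ratio of the means fell below 1, with derived cells at 0.968 and 0.827 times the fibroblast mean for miR-100-5p and 0.753 and 0.391 times for the miR-100 entry, in IVF and NT.

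The miR-10b entries were lower and the miR-100 entry higher in fibroblasts than in oocytes. miR-10b-5p was lower in fibroblasts by 6.52 ± 1.03 (limma adjusted p = 1.68e-07), miR-10b by 4.63 ± 1.01 (adjusted p = 9.23e-05) and miR-10b-3p by 2.71 ± 0.84 (adjusted p = 0.00567). miR-100 was higher by 3.56 ± 0.93 (adjusted p = 0.00101) and miR-100-5p by 2.45 ± 0.91 (adjusted p = 0.0235). Fibroblast replicate 3, in which miR-10b led the exact members as in oocytes, still lay below every oocyte library for miR-10b-5p. These were 5 of 8 members called, 3 lower and 2 higher, where 41.8% of all entries were called, 40.4% lower and 1.36% higher. The miR-100 entry stood at 5.01, 3.43 and 6.32 in fibroblasts, with a mean in normalised reads at least 2.69-fold above the oocyte floor. Fibroblast replicate 3 alone, at 6.24 normalised reads, lay under that floor of 13.4. miR-100-5p, at 4.14, 2.72 and 4.59, had a fibroblast mean of 11.5 normalised reads, under the oocyte floor of 13.4, so its difference was not detectable at this depth. Its call was also lost without fibroblast replicate 1 or 4 or oocyte replicate 3 (limma adjusted p up to 0.108), and that of miR-10b-3p without oocyte replicate 1 (0.0596). miR-99a-5p, miR-99b-5p and miR-10a-5p differed by −0.48, 0.22 and −0.23 and were not called.

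Cloned and fertilised embryos did not differ in any member by the adjusted test. By limma 0 of 8 members were called at the 2-cell stage, where 2.28% of all entries were called, at the 8-cell stage (0.00831%), in morulae (0%), in blastocysts (0.00831%) and in derived cells (0%). At an unadjusted p under 0.05 there was 1 member, in morulae, and limma-voom called 0 at every stage on both scales of reads. The largest differences, NT minus IVF with 95% intervals, were −0.89 (−2.23 to 0.44) for miR-99b-5p at the 2-cell stage and 1.36 (−0.34 to 3.06) for miR-99a-5p at the 8-cell stage. In blastocysts the largest was −1.23 (−2.93 to 0.47) for miR-99a-5p and in derived cells 1.37 (−0.51 to 3.26) for miR-10b. These intervals leave room for differences of several fold in the direction of the estimate. For miR-10b-5p the interval was −1.58 to 1.96 at the 2-cell stage and −2.89 to 0.94 in blastocysts.

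In morulae the member at an unadjusted p under 0.05 was miR-10b-5p. It stood at 7.14, 7.15 and 7.38 in NT and at 4.21, 7.07, 1.37 and 7.61 in IVF morulae, a difference of 2.16 (95% interval 0.24 to 4.07, limma adjusted p = 0.415). IVF replicates 2 and 4 lay in the NT range or beside it, and the low values were those of replicates 1 and 3, the libraries that stand apart. Without both, a choice made after seeing the data, the difference was −0.12 ± 0.78. Without IVF morula replicate 4 alone it was 3.00 ± 0.95 and was called (adjusted p = 0.0455). IVF morula replicate 1 had a mix of exact members like that of derived cells, with 13.6% miR-10a, 22.1% miR-10b, 35.4% miR-99a and 27.4% miR-100, and its mesenchymal markers summed to 25315 per 1000000 miRNA reads. The part of the library's cell content was not tested. The step from blastocyst to derived cells did not differ between NT and IVF in any member either. By limma 0 of 8 interactions were called, beside 0% of all entries, 0 at an unadjusted p under 0.05 and 0 by limma-voom. The largest was 2.07 (95% interval −0.64 to 4.78) for miR-10b-5p.

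Most entries of the miRNAs encoded beside miR-99a, miR-99b and miR-100 also rose in derived cells. miR-99b-5p itself was not called there on the deposited scale. Entries of let-7a, let-7c, let-7e, miR-125a and miR-125b numbered 12, and 9 of 12 were called higher in derived cells than in blastocysts in IVF and in NT alike. Over all entries 0.93% and 0.988% were called higher in this step. Their median change was 3.82 and 4.43. let-7a-5p, known for restraining growth genes, had means of 6.85 in IVF and 6.04 in NT blastocysts, and of 11.08 and 10.37 in the derived cells. miR-125b, which acts on growth and cell death regulators, had means of 6.73 and 5.98 before and 11.55 and 11.72 after. The name of that entry does not tell MIR125B-1 from MIR125B-2. These partners were well above the lowest value in oocytes, where the exact miR-100 entries had 0 reads: let-7a-5p had a mean of 8.96 and miR-125b of 7.17 there. Between fibroblasts and oocytes 0 of 12 partners were called, where 41.8% of all entries were called. From oocytes to blastocysts 1 of 12 was called lower in IVF and 3 in NT, beside 33.9% and 38.5% of all entries. Against fibroblasts 1 and 3 were called higher in IVF and NT derived cells, beside 0.291% and 0.565% of all entries. Between NT and IVF 0 were called at any stage, where at most 2.28% of all entries were called.

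Of other miRNAs encoded in HOX clusters 1 of 3 names was found, miR-196a, a repressor of HOX transcripts. It did not follow miR-10: it was higher in blastocysts than in oocytes by 4.02 in IVF (limma adjusted p = 1.26e-05) and 4.13 in NT (adjusted p = 1.3e-06), where the miR-10b entries were lower. In the step to derived cells it changed by −1.14 and −1.30 and was not called, where exact miR-10a-5p rose. In MIR10A's neighbourhood ARS-UCD2.0 places MIR196A-1.

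The patterns most like that of miR-10b-5p belonged to miRNAs outside the family. Ranked by Pearson r of the 12 group means among 365 exact miRNA entries, these were miR-150-5p (0.977), miR-148a-3p (0.959), miR-138 (0.954), miR-138-2-5p (0.945) and miR-122 (0.929). All 5 had their oocyte mean above their NT blastocyst and fibroblast means. miR-150-5p, for example, went from 5.61 in oocytes to 3.52 in NT blastocysts, 2.82 in NT derived cells and 1.37 in fibroblasts, and miR-138 from 8.64 to 4.19, 3.26 and 2.21.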

How the data were processed

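Small RNA was sequenced in 42 bovine libraries of 12 groups. Per the submitters' processing notes, reads were trimmed with Trim Galore and the tables involve DESeq2 and the builds UMD3.1 and bosTau8. How reads were mapped and annotated, and tool versions, are not stated in the labels. The authors deposited variance-stabilised log2 values, the lowest of which is 1.37.

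Inverting the transformation gave whole reads for 100% of 188126 values above the lowest (tolerance 0.01 reads), taking the smallest listed value as 2 reads. That assumption sets the absolute scale of read numbers, floors and SDs in reads. Depth was 25119 to 3081186 listed reads per library. Intervals and floors (3 reads) cover counting error or library spread only, since no molecular identifiers are mentioned.

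The main test was limma 3.58.1 in R 4.3.3 on the deposited log2 values, with 1 fit of all 12 groups, an intensity trend in the variance, and Benjamini-Hochberg adjustment over the 12039 entries that exceeded the lowest value by 1 log2 unit or more in 3 or more libraries. It was tested on simulated data. Alternatives were other filters, median centring, recovered reads with limma-voom scaled to listed reads or, as a choice made after seeing the data, to miRNA reads, a fit of the compared groups only, no trend, the replicate number as a block, and each library left out. The numbers paired the samples by the set rule (every same-numbered pair correlating over 0.1) in 1 of 12 comparisons, IVF derived cells against fibroblasts, with r of 0.185 to 0.458. This pairing comes from the data, since no label ties the numbers together.

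Each arm is described by its entry with the highest mean over groups, other members where called, and mismatched forms by their mean (up to 3). Lists of cluster partners, HOX miRNAs and cell type markers are given as counts with at most 3 named entries each. Members, lists and rules were chosen with earlier results of these data known. Sequences are not printed, and coordinates are not used.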

Additional observations from a re-analysis of the deposited data

Results flagged for a closer look

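In groups of 4 libraries, 60 sets of values of the family were screened for a library far from the rest, measured by its gap to the nearest value over the group's range. Of these, 8 passed the 95% limit. Chance alone flags about 1 in 20 only where values vary continuously. Where all other libraries stand at 1.37, any library with reads passes by construction, so that rate does not apply. Most of the 8 are of this kind and rest on a few reads of a member whose other libraries hold 0. miR-100 stood at 4.39 in IVF 2-cell replicate 3 (11 reads) and at 3.95 in NT 2-cell replicate 4 (9 reads), with the other libraries of each group at 1.37. miR-10a-5p stood at 4.36 in IVF 2-cell replicate 1 (3 reads), again with the others at 1.37. miR-99b-5p stood at 2.71 in NT 2-cell replicate 4 (2 reads), at 3.03 in NT 8-cell replicate 4 (4 reads) and at 2.70 in IVF morula replicate 1 (7 reads), where the others were at 1.37. The opposite case was miR-10b-3p, at 1.37 (0 reads) in NT 2-cell replicate 2, where the next lowest library was at 3.91. The summed exact members were lowest in NT 2-cell replicate 3, at 8707 per 1000000 miRNA reads, with the nearest library at 15346.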

How the results depend on the processing

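Of 29 called changes of members and of the 3 named mismatched forms, 12 kept their direction and call under all 8 alternatives to the fit, and 16 kept both when each library was left out. The filters changed none of the 29. Recovered reads per listed read kept 19, and 1 reversed: miR-10b between NT blastocysts and oocytes, at 0.57. Reads per miRNA read kept 16. Counts of called members moved as follows. IVF derived cells against fibroblasts went from 1 to 0 with median centring, with only the compared groups, without the trend and per miRNA read, and to 2 with the replicate block. NT derived cells against fibroblasts went from 2 to 1 with median centring and without the trend, to 4 per listed read and to 0 per miRNA read. Blastocysts against oocytes went from 2 to 0 in IVF on both scales of reads, and from 4 to 1 in NT per listed read, the 1 being miR-100, higher. NT derived cells against NT blastocysts went from 4 to 7 with only the compared groups. The block changed no other count by over 1.5 times. Leaving out 1 library gave 4 to 5 called members for fibroblasts against oocytes, 0 to 2 and 1 to 3 for IVF and NT derived cells against fibroblasts, 0 to 2 and 1 to 4 for IVF and NT blastocysts against oocytes, 3 to 4 for both steps to derived cells, 0 to 1 for NT against IVF morulae, and 0 to 0 for the other 4 contrasts of NT and IVF and for the interaction. Median centring moved the median of all entries to −0.71 and −0.75 in the IVF and NT steps to derived cells and to −1.30 between fibroblasts and oocytes. Library weights could not be fitted, because their estimate did not converge. The cause of each change was not tested. Depth limits the members below about 3 reads, which includes miR-99b-5p in most groups.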

Other observations

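Several libraries held a family mix unlike the rest of their group. Fibroblast replicate 3 held 61.8% miR-10b among its exact family reads, 647 reads of the T12A form and a mesenchymal marker sum of 12398 per 1000000 miRNA reads, beside 0% and 0.786% miR-10b, 0 and 35 reads and 52051 and 100505 per 1000000 in replicates 1 and 4. IVF derived replicate 2 held 0.494% miR-10b, 22 reads of the T12A form and 25.6 per 1000000 of epithelial markers, where the other IVF derived libraries held 17.0% to 24.3%, 269 to 4760 reads and 10861 to 18866 per 1000000. Its 101282 per 1000000 of mesenchymal markers lay near fibroblast replicate 4 at 100505. These values are given without a test.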
